A study of Mus musculus with 6 samples.

Results

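Nuclear receptors are transcription factors that mostly respond to small lipophilic ligands, and 46 genes of this superfamily were followed in small intestinal organoids that had received LDL (low-density lipoprotein) or PBS. The members were chosen by gene symbol from the peroxisome proliferator-activated receptors (PPARs), retinoid X receptors (RXRs) and 14 further groups of receptors, and all 46 were among the 55416 genes of the deposited table. A typical receptor has a DNA-binding domain with zinc fingers and a ligand-binding domain. Many, including the PPARs, the liver X receptors (LXRs), the farnesoid X receptor (FXR) and the vitamin D receptor, bind DNA together with an RXR. In the intestinal epithelium this family is known for sensing fatty acids, oxysterols, bile acids, retinoids and vitamin D, and for the enterocyte program that HNF4 factors maintain.

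Crypts of the duodenum and jejunum of 3 wild-type C57BL/6 mice were grown as organoids, which hold a mixture of epithelial cell types and no fixed proportion of them. Each mouse gave 1 culture with 50 μg/ml LDL and 1 with PBS, and RNA was taken on day 5, so that each treatment had 3 libraries and the LDL and PBS libraries with 1 replicate number came from 1 mouse. The labels give no age or sex that is used here. All 3 mice are labeled wild type, but the animal identifier of mouse 3 differs in form from the others, so calls are also given without this mouse.

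Between 22061545 and 31073360 reads per library lay on genes, and normalized counts are these reads after scaling each library by its size factor. The LDL library of mouse 1 had a read on 35781 genes, against 29285 to 32751 in the others. Epithelial marker genes summed to 68603 to 71082 normalized counts with PBS and 75753 to 92089 with LDL. Stromal markers summed to 15.5 to 43.9 and endothelial markers to at most 25.6 over all 6 libraries. Immune markers were near 0 but did not overlap, with sums of 13.3, 9.94 and 3.26 with PBS and 42.7, 16.4 and 20.1 with LDL in mice 1, 2 and 3, and their part in the results was not tested. Fetal-like epithelial markers (Clu, Ly6a, Anxa1 and Anxa3) summed to 677, 109 and 467 with PBS and to 14869, 1471 and 10538 with LDL in mice 1, 2 and 3. Goblet cell markers summed to 44141 to 49739 with PBS and to 25698 to 31798 with LDL. Stem cell markers overlapped, with sums of 21010, 16112 and 31177 with PBS and 11315, 18031 and 14879 with LDL in mice 1, 2 and 3. In RNA of whole organoids, fewer cells of a type and less RNA per cell cannot be told apart.

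Most of these receptors were present in organoids, and 1 of them dominated. A total of 41 members had a read in every library, 35 passed the minimum mean of 10 normalized counts and were tested, and Nr0b1 was the 1 member without a read. Levels are compared between genes as normalized counts per kilobase of exon, where the exon length is the union of all annotated exons. On this scale Hnf4a, the regulator of enterocyte and liver genes, stood first with 4105 ± 127 (SD, n = 3) with PBS and 3578 ± 230 (SD, n = 3) with LDL. It made up 39.9% to 41.5% of the summed level of the members with PBS and 39.1% to 43.4% with LDL. Vdr, the vitamin D receptor, followed with 1297 ± 111 per kilobase with PBS, and its PBS values were separate from those of Hnf4a above and Esrra below. Esrra, an orphan receptor tied to mitochondrial genes, Nr3c1, the glucocorticoid receptor, Nr1i2, the xenobiotic sensor PXR, and Hnf4g stood next at 527, 475, 465 and 365 per kilobase. The PBS ranges of neighbors in this part of the order overlapped. Below them, Rxra, Nr1h2, Thra, Esrrg, Rxrb and Nr5a2 lay between 250.3 and 175 per kilobase, also with overlapping neighbors.

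**Figure D1:**
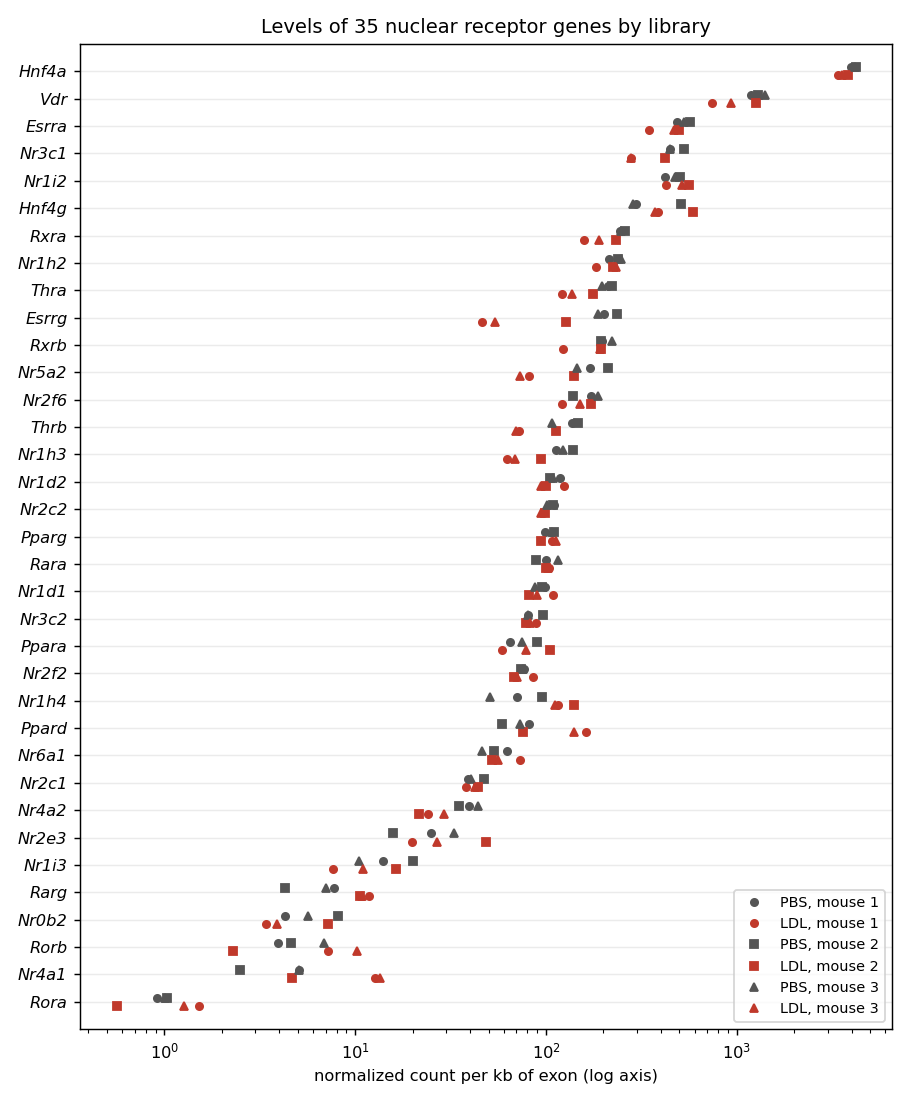
Normalized count per kilobase of exon (log axis) of the 35 tested nuclear receptor genes, ordered by their mean with PBS, with 1 point per library (gray for PBS, red for LDL, and 1 symbol per mouse). Hnf4a and Vdr stand above all others in every library, and the red points of Esrrg and Nr5a2 lie to the left of their gray points.

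With LDL, 3 members were upregulated (Nr4a1, Nr1h4 and Ppard) and 5 were downregulated (Esrrg, Nr5a2, Nr1h3, Nr4a2 and Thrb) when each LDL culture was compared with the PBS culture of the same mouse. A call required an adjusted p-value under 0.05 from limma, adjusted over all 18459 genes tested, and a change of more than 1.5-fold. In this fit with the mouse as a block, 5.68% of all genes tested were called higher and 3.46% lower, against 3 and 5 of 35 members. Without the block, when the libraries were compared as 2 independent groups, none of the 35 members was called, where the background was 0.878% higher and 0.395% lower. The smallest adjusted p-value of a member was then 0.0680 from limma, and 4 members were higher and 9 lower at an unadjusted p-value under 0.05 (background 9.96% and 9.73%). On the recovered reads without the block, DESeq2 called 3 higher and 4 lower (background 4.58% and 1.89%), and edgeR called none (background 1.01% and 0.379%). With the block, DESeq2 called 3 higher and 5 lower (background 5.31% and 2.77%) and edgeR 4 and 5 (background 6.34% and 3.19%). Whatever the size of the change, 4 members were higher and 8 lower at an adjusted p under 0.05 in limma with the block (background 8.27% and 7.45%), which adds Hnf4g to the higher and Nr3c1, Thra and Rxra to the lower ones. In the text below, upregulated and downregulated refer to the fit with the mouse block.

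Over the 35 tested members the median log2 fold change was -0.06, beside -0.02 over all genes tested. Lower means with LDL were found for 23 members (65.7%) and higher means for 12, where 52.4% of all genes tested had a lower mean. The direction was the same in all 3 mice for 14 members that were lower and 6 that were higher, against 26.8% and 24.2% of all genes tested. LDL and PBS values did not overlap for 9 members that were lower and 2 that were higher, where the background was 12.3% and 11.9%. With 3 libraries against 3 as independent groups, an exact two-sided permutation test cannot give a p-value below 0.1. One that swaps the treatments within each of the 3 mice cannot go as low as that.

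**Figure D2:**
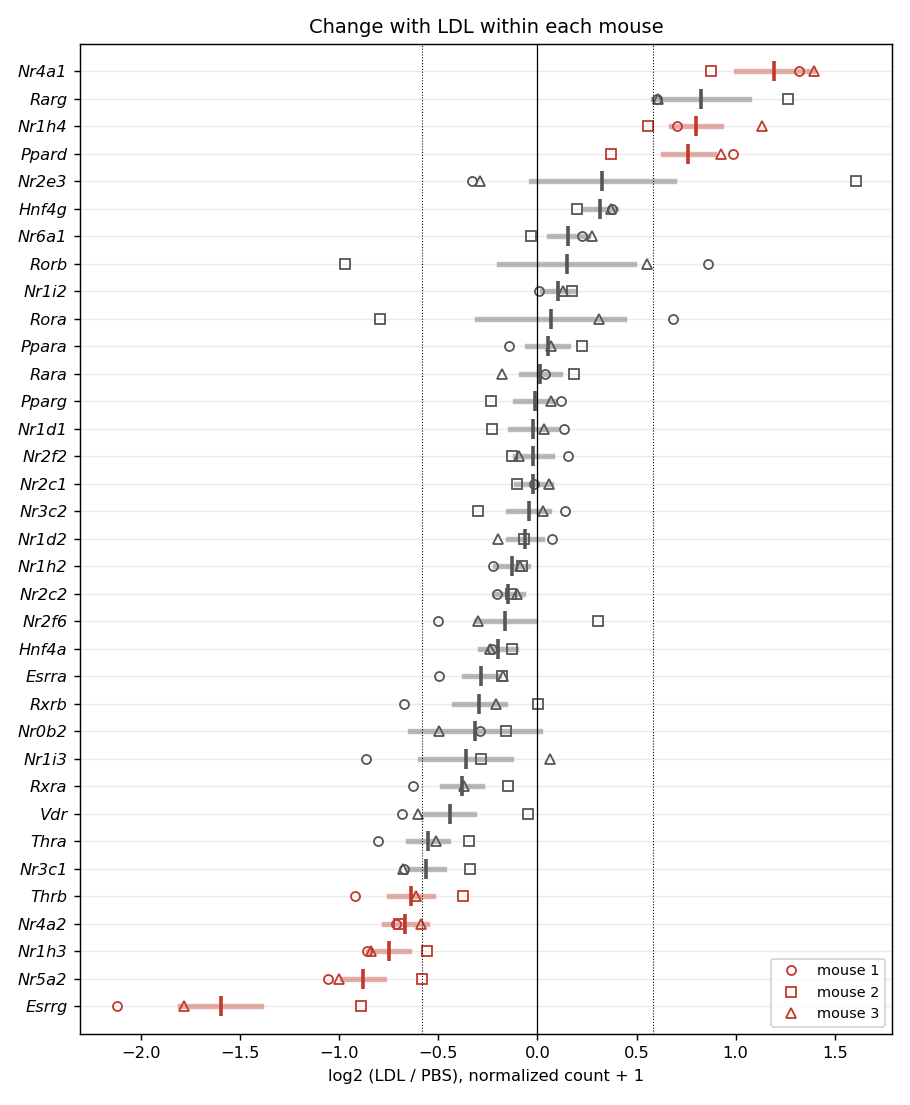
Log2 ratio of LDL to PBS (normalized count plus 1) within each mouse for the 35 tested members, with open symbols for mice, a vertical tick for the mean and a bar of 1 standard error on each side from the fit with the mouse block. Red marks the 8 members called in that fit and dotted lines mark 1.5-fold, and the symbols of Esrrg reach from -2.12 in mouse 1 to -0.89 in mouse 2.

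Among the fatty acid receptors, Ppard was upregulated, and Ppara and Pparg were not called. Ppard encodes PPARδ, which activates fatty acid oxidation genes in crypt cells and many other tissues, and lies at chr17:28451674-28520448 of GRCm39. Its normalized counts were 615, 440 and 551 with PBS and 1220, 568 and 1048 with LDL in mice 1, 2 and 3. Each mouse was higher with LDL, by 1.98-fold, 1.29-fold and 1.90-fold, but the LDL value of mouse 2 lay below the PBS value of mouse 1, so the groups overlapped. Limma gave a log2 fold change of 0.76, at SE = 0.13 and adjusted p = 0.00777 with the block and at SE = 0.27 and adjusted p = 0.183 without it. Ppard is among the genes the study itself singled out on these samples, so its direction here is not independent evidence. Per kilobase of exon it stood at rank 25 among the 46 members with PBS and at rank 12 with LDL.

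Ppara, the main PPAR of liver and an intestinal fatty acid sensor, had 427, 589 and 496 normalized counts with PBS and 387, 689 and 520 with LDL. The groups overlapped and the mice went in different directions, with a log2 fold change of 0.05 (limma with the block, adjusted p = 0.787). The exons of Ppara share 1803 bases with Cdpf1 on the other strand, and the strand setting of the read counting is not stated. Pparg, the adipocyte regulator that is also found in gut epithelium, had 691, 769 and 752 with PBS and 751, 654 and 789 with LDL. Its log2 fold change was -0.01 and its sign changed with other scalings. With PBS, the levels per kilobase were 106 ± 5.90 for Pparg, 76.5 ± 12.4 for Ppara and 71.2 ± 11.8 for Ppard (SD, n = 3), and with LDL the mean of Ppard was the highest of the PPARs at 126 ± 44.9.

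Of the RXRs, the shared partners of these receptors, none was called. Rxra had 1687, 1782 and 1691 normalized counts with PBS and 1090, 1607 and 1309 with LDL, so that the groups did not overlap and each mouse was lower. The log2 fold change of -0.38 was smaller than 1.5-fold (limma with the block, adjusted p = 0.0410 and 0.187 without). Rxrb had 844, 836 and 956 with PBS and 528, 838 and 828 with LDL, with mice 1 and 3 lower and mouse 2 level with PBS, and was not called. Rxrg, known from muscle and brain, had 1 read in the LDL library of mouse 1 and none elsewhere, where a count of 0 allows up to 3 reads.

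The 2 oxysterol receptors differed in what the test found. Nr1h3 encodes LXRα and lies at chr2:91014394-91033417. It had 572, 698 and 624 normalized counts with PBS and 315, 475 and 348 with LDL, and was downregulated. All LDL values lay below all PBS values, and the ratio to PBS was 0.550, 0.680 and 0.558 in mice 1, 2 and 3. This was a log2 fold change of -0.75 (limma, adjusted p = 0.00329 with the block and 0.0770 without). Exons of Nr1h3 share 256 bases with Acp2 on the other strand, which had a log2 fold change of -0.19. Nr1h2, which encodes LXRβ, had 738, 824 and 852 with PBS and 632, 780 and 802 with LDL, with a log2 fold change of -0.13 (limma with the block, adjusted p = 0.346). The difference between the changes of the 2 genes was not tested.

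Nr1h4, which encodes the bile acid receptor FXR, was upregulated. It lies at chr10:89289742-89369497 and had 343, 461 and 246 normalized counts with PBS and 559, 679 and 541 with LDL. All LDL values lay above all PBS values, and the gene was 1.63-fold, 1.47-fold and 2.2-fold higher in mice 1, 2 and 3. This was a log2 fold change of 0.80 in limma, at SE = 0.13 and adjusted p = 0.00607 with the block and at SE = 0.22 and adjusted p = 0.114 without it. Nr0b2, which encodes SHP, a receptor without a DNA-binding domain that is a known FXR target in liver and ileum, had 9.19, 17.4 and 12.2 with PBS and 7.32, 15.5 and 8.36 with LDL. These are 6 to 17 reads per library, and the groups overlapped (log2 fold change -0.32, limma with the block, adjusted p = 0.573).

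The NR4A receptors are orphan receptors whose transcription responds quickly to growth factors, stress and calcium, and 2 of them were called in opposite directions. Nr4a1 at chr15:101151980-101172681 had 55.1, 27.3 and 55.4 normalized counts with PBS and 139, 50.9 and 147 with LDL. Each mouse was higher, by 2.52-fold, 1.86-fold and 2.66-fold, but mouse 2 was low in both treatments and the groups overlapped. In limma, Nr4a1 had a log2 fold change of 1.20, at SE = 0.19 and adjusted p = 0.00645 with the block and at SE = 0.46 and adjusted p = 0.201 without it. Nr4a2 at chr2:56996842-57014331 had 325, 287 and 361 with PBS and 198, 176 and 240 with LDL. Here all LDL values lay below all PBS values, and the ratios of 0.609, 0.615 and 0.664 were close to each other in the 3 mice. Its log2 fold change was -0.67, with an adjusted p of 0.00681 with the block and 0.0874 without (limma). Nr4a3 had 2 to 11 reads per library and was not tested.

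Nr5a2 encodes LRH-1, a phospholipid-binding receptor of crypt cells that also drives local glucocorticoid synthesis in the gut, and it was downregulated. It lies at chr1:136770303-136888186, with 1468, 1817 and 1257 normalized counts with PBS and 705, 1214 and 627 with LDL. The groups did not overlap, and LDL values were 0.480, 0.668 and 0.499 of the PBS values of the same mouse. Nr5a2 had a log2 fold change of -0.88 (limma, adjusted p = 0.00222 with the block and 0.118 without). Nr6a1, a germ cell factor of the neighboring subfamily, had a log2 fold change of 0.16 and was not called.

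The change furthest from 0 among the members was that of Esrrg, which encodes the estrogen-related receptor ERRγ, an orphan receptor of oxidative tissues. It lies at chr1:187340988-187947082 and had 1257, 1465 and 1161 normalized counts with PBS and 288, 789 and 336 with LDL. All LDL values lay below all PBS values, and the ratio to PBS was 0.229 in mouse 1, 0.539 in mouse 2 and 0.290 in mouse 3. Its log2 fold change in limma was -1.60, at SE = 0.20 and adjusted p = 0.00264 with the block and at SE = 0.34 and adjusted p = 0.0680 without it. Its rank per kilobase went from 10 with PBS to 23 with LDL. Esrra, its paralog with the higher level, had 2427, 2818 and 2636 with PBS and 1720, 2485 and 2338 with LDL. Each mouse was lower, but the groups overlapped and the log2 fold change of -0.28 was not called (limma with the block, adjusted p = 0.0705). Exons of Esrra share 1479 bases with Trmt112 on the other strand.

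**Figure D3:**
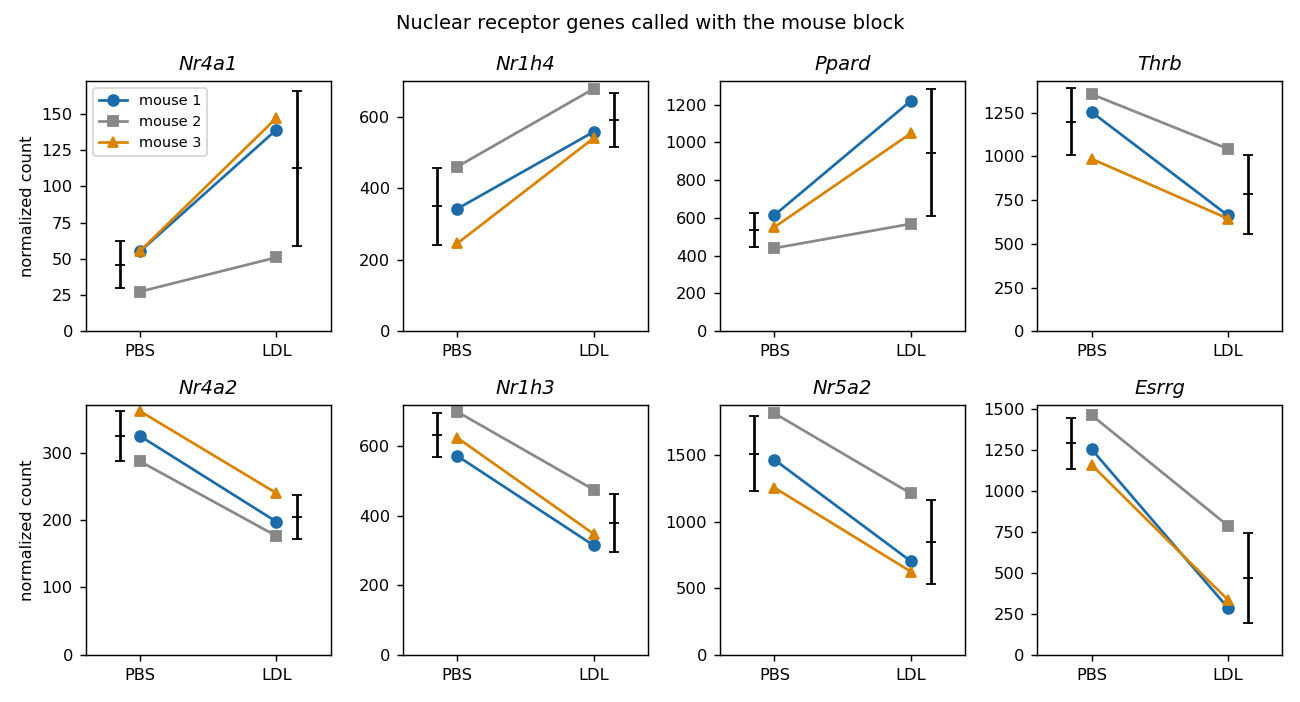
Normalized counts of the 8 members called with the mouse block, with 1 line per mouse from PBS to LDL and the mean with its standard deviation (n = 3) as a black bar beside each group. All lines of Nr4a1, Nr1h4 and Ppard go up and all lines of the other genes go down, and the Ppard line of mouse 2 goes only from 440 to 568.

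The thyroid hormone receptors and the glucocorticoid receptor were lower with LDL in every mouse. Thrb, at chr14:4429815-4809435, had 1254, 1356 and 986 normalized counts with PBS and 662, 1043 and 644 with LDL and was downregulated. The LDL value of mouse 2 lay above the PBS value of mouse 3, so the groups overlapped (log2 fold change -0.64, limma with the block, adjusted p = 0.00849 and 0.149 without). Thra, the thyroid hormone receptor with the higher level in this epithelium, had 1669, 1765 and 1549 with PBS and 956, 1390 and 1085 with LDL. Its log2 fold change of -0.55 lay just below the 1.5-fold threshold (0.58 on the log2 scale), with an adjusted p of 0.010 with the block (limma). Exons of Thra share 1694 bases with Nr1d1 on the other strand, and Nr1d1 had a log2 fold change of -0.02. Nr3c1 had 3515, 4181 and 3527 with PBS and 2199, 3305 and 2202 with LDL, with no overlap. Its log2 fold change of -0.57 also lay just below the threshold (limma with the block, adjusted p = 0.00640 and 0.131 without). Nr3c2, the mineralocorticoid receptor, had a log2 fold change of -0.04.

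Vdr had 6809, 7448 and 8079 normalized counts with PBS and 4243, 7206 and 5324 with LDL. It was lower in mice 1 and 3, at 0.623 and 0.659 of PBS, and close to PBS in mouse 2, at 0.967. For Vdr this was a log2 fold change of -0.44 (limma with the block, adjusted p = 0.0505 and 0.238 without). Nr1i2 (PXR) and Nr1i3 (CAR), which sense foreign compounds, had log2 fold changes of 0.10 and -0.36 and were not called. Of the 4644 exon bases of Nr1i3, 3501 are shared with Tomm40l on the other strand, so its 29 to 84 reads per library cannot be assigned with certainty.

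The HNF4 factors were not called. Hnf4a had 19935, 21071 and 21016 normalized counts with PBS and 16973, 19266 and 17815 with LDL, with no overlap, at a log2 fold change of -0.20 (limma with the block, adjusted p = 0.187). Hnf4g, the intestinal paralog, had 1306, 2242 and 1258 with PBS and 1695, 2578 and 1630 with LDL. Each mouse was higher, by 1.30-fold, 1.15-fold and 1.30-fold, and mouse 2 was high in both treatments. The log2 fold change of 0.32 was below the fold threshold (limma with the block, adjusted p = 0.0308 and 0.552 without).

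Among the retinoic acid receptors, Rara had 633, 557 and 725 normalized counts with PBS and 649, 632 and 641 with LDL, at a log2 fold change of 0.01. Rarg had 35.7, 19.9 and 32.6 with PBS and 54.9, 49.1 and 50.2 with LDL, and the groups did not overlap. Its log2 fold change of 0.83 rested on 16 to 60 reads per library and was not called (limma with the block, adjusted p = 0.0552), whereas edgeR with the block called it (adjusted p = 0.0468). Rarb, itself a retinoic acid target, had 3, 1 and 3 reads with PBS and 6, 9 and 7 with LDL, below the minimum for the test, and its exons share 2612 bases with the abundant Top2b on the other strand. Without a minimum, its log2 fold change was 1.35 (limma without the block, adjusted p = 0.356).

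The remaining tested receptors were not called. The circadian repressors Nr1d1 and Nr1d2 (REV-ERBα and REV-ERBβ) had log2 fold changes of -0.02 and -0.06, and Nr1d2, the one with the higher level, had 1069, 951 and 981 normalized counts with PBS and 1126, 908 and 853 with LDL. Rora and Rorb, which activate the same clock genes, were 1.65-fold and 1.83-fold higher in mouse 1 and at 0.549 and 0.50 of PBS in mouse 2. Nr2c2 (TR4) had 1777, 1748 and 1620 with PBS and 1544, 1592 and 1506 with LDL, a small difference without overlap (log2 fold change -0.15, limma with the block, adjusted p = 0.224). The COUP-TF members Nr2f2 and Nr2f6 had log2 fold changes of -0.02 and -0.17, and Nr2c1 had -0.02. Nr2f6 had 826, 666 and 896 with PBS and 583, 823 and 727 with LDL, higher in mouse 2 and lower in the others. Nr2e3, known from photoreceptors, was 3.08-fold higher in mouse 2 and lower in the other mice. Nr2c2 and Nr2f6 share exon bases with Mrps25 and Ocel1 on the other strand.

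In total 11 members fell below the minimum mean. Besides Nr0b1, Rxrg, Rarb and Nr4a3 these were Nr2e1, Nr2f1, Esr1, Esr2, Esrrb, Pgr and Nr5a1, receptors best known from brain, reproductive and steroid-producing tissues. Esr1, the estrogen receptor α, had 4, 2 and 3 reads with PBS and 8, 5 and 16 with LDL. Esrrb had 3 reads and Nr2e1 had 7 reads in the LDL library of mouse 1, the library with reads on the most genes, and 0 to 2 reads in every other library.

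The RefSeq windows from 250 bases before to 50 bases after a transcription start (GRCm38.p6) were searched on both strands in 42 members that had one. The nuclear receptor half-site AGGTCA was found in 19.0% of 63 windows of members and in 16.3% of all 32851 windows. The DR1 element, a direct repeat of the half-site with 1 base between the copies that PPAR with RXR and HNF4 bind, was in none of the windows of members and in 0.0396% of all. TGACG, the half-site bound by CREB, was in 27.0% and 20.8%. Windows are shown for the 3 upregulated genes, for Nr4a2 because it is the close relative of Nr4a1 that moved the other way, and for Thrb and Nr5a2 because they are the downregulated genes with a half-site (each has 2 RefSeq windows, of which the one furthest upstream is shown). Each reads from 5′ to 3′ on the strand of the gene, and capitals mark AGGTCA and TGACG or their reverse complements TGACCT and CGTCA. The windows lie at chr17:28232504-28232803 (plus strand) for Ppard, chr10:89506609-89506908 (minus) for Nr1h4, chr15:101266596-101266895 (plus) for Nr4a1, chr2:57123954-57124253 (minus) for Nr4a2, chr14:17660710-17661009 (plus) for Thrb and chr1:136960399-136960698 (minus) for Nr5a2.
Ppard: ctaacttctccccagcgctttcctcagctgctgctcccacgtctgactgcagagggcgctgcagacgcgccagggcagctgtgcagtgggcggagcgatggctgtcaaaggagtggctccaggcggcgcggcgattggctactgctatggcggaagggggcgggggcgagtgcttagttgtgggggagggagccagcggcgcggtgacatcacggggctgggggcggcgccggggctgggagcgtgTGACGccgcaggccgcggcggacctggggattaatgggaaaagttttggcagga
Nr1h4: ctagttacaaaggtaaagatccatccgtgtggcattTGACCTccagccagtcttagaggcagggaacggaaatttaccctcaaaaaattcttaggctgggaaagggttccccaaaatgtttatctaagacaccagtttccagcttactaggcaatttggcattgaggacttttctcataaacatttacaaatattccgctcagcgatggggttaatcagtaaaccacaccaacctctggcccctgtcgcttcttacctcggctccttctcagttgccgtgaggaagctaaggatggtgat
Nr4a1: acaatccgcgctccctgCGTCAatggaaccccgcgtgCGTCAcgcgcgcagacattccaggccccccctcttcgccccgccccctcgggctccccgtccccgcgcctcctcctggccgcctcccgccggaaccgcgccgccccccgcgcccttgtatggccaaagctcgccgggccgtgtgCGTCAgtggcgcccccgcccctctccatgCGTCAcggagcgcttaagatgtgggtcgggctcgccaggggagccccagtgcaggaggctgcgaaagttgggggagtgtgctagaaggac
Nr4a2: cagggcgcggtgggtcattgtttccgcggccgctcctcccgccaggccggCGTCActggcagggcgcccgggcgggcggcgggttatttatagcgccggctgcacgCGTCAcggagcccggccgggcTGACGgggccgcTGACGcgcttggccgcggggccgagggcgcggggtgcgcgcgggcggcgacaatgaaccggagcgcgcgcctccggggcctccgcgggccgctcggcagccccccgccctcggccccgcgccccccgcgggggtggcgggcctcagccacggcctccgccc
Thrb: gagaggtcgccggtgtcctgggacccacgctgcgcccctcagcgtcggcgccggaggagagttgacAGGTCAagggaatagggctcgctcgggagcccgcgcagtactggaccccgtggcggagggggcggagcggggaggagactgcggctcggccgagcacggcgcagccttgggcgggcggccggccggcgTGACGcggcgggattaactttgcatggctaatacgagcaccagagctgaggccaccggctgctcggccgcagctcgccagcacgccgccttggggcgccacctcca
Nr5a2: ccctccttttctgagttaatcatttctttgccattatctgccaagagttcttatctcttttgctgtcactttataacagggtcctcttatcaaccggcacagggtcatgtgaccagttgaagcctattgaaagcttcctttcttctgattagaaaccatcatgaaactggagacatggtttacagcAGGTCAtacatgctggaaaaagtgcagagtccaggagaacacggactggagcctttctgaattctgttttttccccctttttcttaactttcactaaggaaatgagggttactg

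Both NR4A windows held 4 copies of TGACG, which 0.231% of all windows matched or exceeded, although Nr4a1 was upregulated and Nr4a2 downregulated. They were also rich in G and C, at 72.3% and 81.7%, against a median of 52.7% over all windows. The windows of Nr1h4 and Nr5a2 were at 45.7% and 42.0% and each held 1 half-site. The window of Thrb held 1 half-site and 1 copy of TGACG at 72.7%. That of Ppard had no half-site and 1 copy of TGACG. A match of letters is not a binding site, and these libraries hold no binding data.

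Genes known to respond to these receptors were counted in the same fits to set beside the receptors. Over all genes tested, limma called 5.68% higher and 3.46% lower with the block, and 0.878% and 0.395% without it. Responsive genes of the PPARs were the group with most calls. Of 25 tested, 21 were upregulated with the block and 14 without it, none was downregulated, and the median log2 fold change was 1.01. They included Angptl4, an inhibitor of lipoprotein lipase (263, 244 and 329 normalized counts with PBS and 1783, 1901 and 1954 with LDL), and Pdk4, a pyruvate dehydrogenase kinase (10.2, 3.73 and 9.77 with PBS and 633, 435 and 358 with LDL). Within mice 1, 2 and 3, Angptl4 was 6.77-fold, 7.80-fold and 5.94-fold higher and Pdk4 62.0-fold, 117-fold and 36.6-fold higher. The Pdk4 ratios rest on 10, 3 and 12 reads with PBS, and Pdk4 passed the minimum mean only through its LDL values. Several genes of this list were named by the study on these samples, so the count is not independent evidence of its direction.

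Of 5 tested FXR-responsive genes, 4 were upregulated with the block and none without it. They were Fgf15, the intestinal hormone that limits bile acid synthesis, Slc51a, a subunit of the basolateral bile acid exporter, Osgin1 and Slc10a2, the apical bile acid transporter that FXR represses indirectly. Slc51a had 61.2, 77.0 and 66.8 normalized counts with PBS and 107, 188 and 138 with LDL (log2 fold change 1.04, limma with the block, adjusted p = 0.00640 and 0.0779 without). Slc51b, the other subunit, had a log2 fold change of -0.41 and was not called. Fgf15 was low, with 5.10, 0 and 4.07 with PBS and 29.3, 7.28 and 18.4 with LDL. It passed the minimum mean only through its LDL values.

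Of 13 tested LXR-responsive genes, Arl4c was upregulated and Mylip, Scd1 and Scd2 were downregulated with the block, and none was called without it. Mylip, which encodes an E3 ubiquitin ligase, had 137, 62.1 and 85.5 normalized counts with PBS and 28.1, 19.1 and 30.1 with LDL (log2 fold change -1.79, limma with the block, adjusted p = 0.00273). Abca1, a cholesterol exporter and a standard LXR target, had 399, 601 and 462 with PBS and 296, 813 and 498 with LDL, with a log2 fold change of 0.04. The median of the list was -0.25.

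Of 5 tested retinoid-responsive genes, Rbp2, Tgm2 and Isx were upregulated and Bco1 was downregulated with the block, and Isx and Bco1 were also called without it. Isx, the intestinal homeobox repressor of Bco1, had 5.10, 2.49 and 3.26 normalized counts with PBS and 359, 602 and 317 with LDL. Like Fgf15, it passed the minimum mean only through its LDL values. Bco1, which cleaves beta-carotene to retinal, had 303, 703 and 293 with PBS and 128, 97.3 and 103 with LDL. Of 9 tested HNF4-responsive genes, Apoa4, Apob, Mttp, Fabp1 and Fabp2 were upregulated with the block, and Fabp1 was called without it. Both Fabp genes also stand in the PPAR list.

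With the block, Slc30a10 and Cldn2 of 5 tested VDR-responsive genes were upregulated. Of 11 PXR- or CAR-responsive genes, Cyp3a13, Gsta1 and Aldh1a1 were upregulated and Ces2a was downregulated. Of 7 glucocorticoid-responsive genes, Dusp1 was upregulated and Tsc22d3 was downregulated, with 333, 456 and 352 normalized counts with PBS and 102, 240 and 138 with LDL. Cldn2 and Aldh1a1 were also called without the block. None of 3 thyroid hormone-responsive genes was called, and Ccne1, the 1 tested gene of the NR5A2 list, had a log2 fold change of 0.46 and was not called.

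Clock genes and immediate early genes were counted beside the REV-ERB and NR4A receptors. Of 14 tested clock genes, Npas2 was upregulated and Per3 and Tef were downregulated with the block. Bmal1, the gene that REV-ERBs repress, had 899, 705 and 785 normalized counts with PBS and 683, 671 and 587 with LDL (log2 fold change -0.29, limma with the block, adjusted p = 0.0859). Of 8 tested immediate early genes, Fos, Jun, Junb, Egr1 and Atf3 were upregulated with the block and none without it. Fos had 215, 77.0 and 130 with PBS and 487, 142 and 431 with LDL, and like Nr4a1 it was lowest in mouse 2 in both treatments.

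Coregulators are proteins that receptors recruit to activate or repress genes. None of 15 coactivators and none of 10 corepressors was called in either fit, and their log2 fold changes lay between -0.48 and 0.26. At any fold, 3 had an adjusted p under 0.05 with the block (limma), namely Ncoa1 at -0.48, Sirt1 at -0.28 and Pprc1 at 0.26. Ppargc1a, a coactivator of PPARs and ERRs, had a log2 fold change of -0.25.

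**Figure D4:**
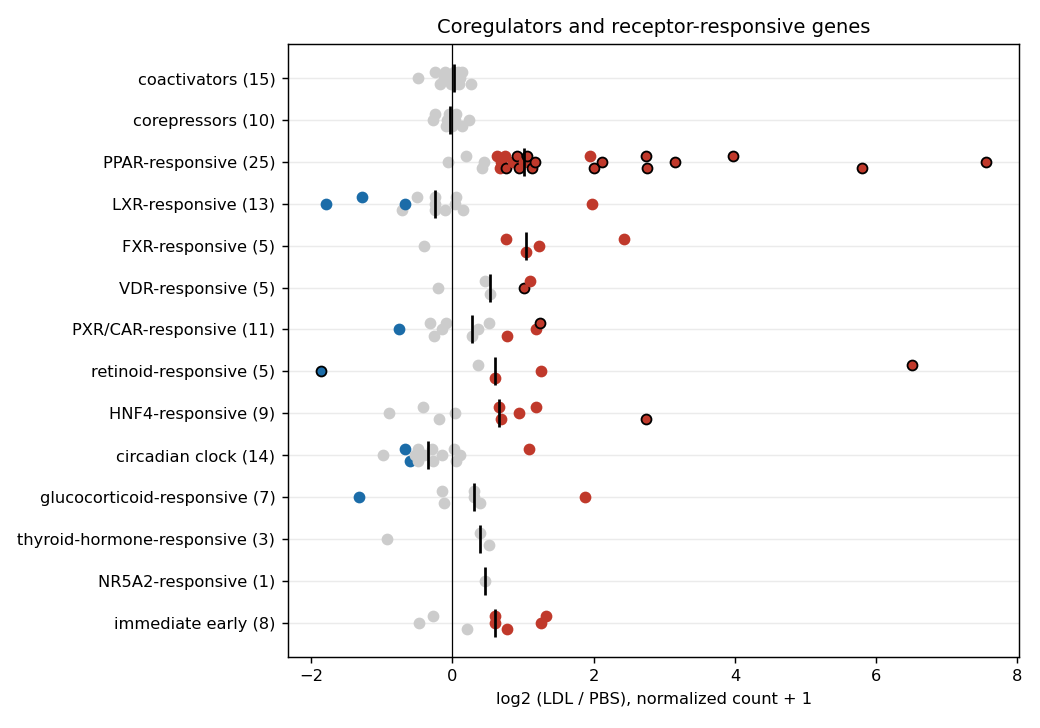
Log2 ratio of LDL to PBS (normalized count plus 1) for coregulators and receptor-responsive genes, with 1 point per gene, the number of genes tested in brackets and a black tick for the median of the list. Red and blue points were called higher and lower with the mouse block, gray points were not, and a black outline marks a call without the block, with Cyp4a10 furthest right at 7.56.

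The 3 mice did not respond to the same extent. The median size of the log2 change within a mouse, whatever its direction, was 0.50, 0.23 and 0.30 over the tested members in mice 1, 2 and 3, and 0.30, 0.20 and 0.25 over all genes tested. For 18 of 35 members the smallest change was that of mouse 2, against 47.0% of all genes tested. This held for 7 of the 8 members called with the block, all but Nr4a2. The fetal-like marker sum, given above, was also lowest in mouse 2 in both treatments, and its part in these changes was not tested. Mouse 2 did not change least in every list. PPAR-responsive genes rose most in mouse 2, with sums of 39614, 53951 and 43952 normalized counts with PBS in mice 1, 2 and 3. With LDL these sums were 87607, 169522 and 105492. Without the LDL library of mouse 2, the fit without the block called 2 members higher and 7 lower (background 6.44% and 6.13%), which added Thra, Vdr and Nr3c1 to those named above and left out Nr1h4 and Nr4a2. From mice 1 and 2 alone, the fit with the block called 0 members, 277 genes higher and 82 lower. The log2 fold changes of the 8 members were then 1.10 for Nr4a1, 0.63 for Nr1h4, 0.68 for Ppard, -1.51 for Esrrg, -0.82 for Nr5a2, -0.71 for Nr1h3, -0.71 for Nr4a2 and -0.65 for Thrb, in the same directions and each past 1.5-fold, at adjusted p-values of 0.0634 to 0.144 (limma). From mice 2 and 3 it called 3 members higher and 4 lower, beside 719 and 326 of 18279 genes tested. From mice 1 and 3 it called 4 members higher and 8 lower, beside 1634 and 1333 of 18601 genes tested.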

How the data were processed

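The series holds 6 RNA-Seq libraries, from LDL and PBS cultures of 3 mice. Libraries were made with a stranded kit after ribosomal RNA removal. The authors aligned reads to GRCm39 with STAR and counted them per gene with featureCounts, and the deposited signal is the count divided by 1 size factor per library. Multiplied back, 100% of the values were whole reads within 0.01. Names and exon lengths came from GENCODE M39 (GRCm39), which held 54749 of the 55416 identifiers. The strand setting of the counting is not given in the sources used here.

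The 18459 genes whose mean reached 10 normalized counts were tested on the scale log2(normalized count + 1). LDL and PBS were compared with limma 3.58.1 (eBayes with a trend, two-sided, Benjamini-Hochberg over all genes tested) in R 4.3.3, with calls defined by an adjusted p under 0.05 together with more than 1.5-fold difference. This planned fit had no mouse term, because the study's text names none. A second fit added it as a block. The labels give the LDL and PBS libraries of a replicate number 1 animal identifier, and their deviations from the treatment means had r = 0.48, 0.42 and 0.46 in mice 1, 2 and 3 (across genes, which are not independent). DESeq2 1.42.0 and edgeR 4.0.16 were run on the recovered reads. In simulated data for this comparison with 200 genes changed by 1.5 on the log2 scale and no mouse differences, each fit recovered all 200. With mouse differences of SD 0.5 (log2) added, all fits with the block again found 200. Without the block, DESeq2 then found 128 and both limma and edgeR found 0. False calls with the block were 6 in limma, 6 in edgeR and 0 in DESeq2. Recovery at sizes below 1.5 was not tested. Of the 8 members called with the block, only Esrrg was past that size, at -1.60, and Nr4a1 came next at 1.20.

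The members and the gene lists, the latter written from general knowledge, were chosen with earlier results of these data known. A few genes of the lists are not reported here, and counts, medians and sums of these lists cover the remaining genes. Values of every library are given for members with an unadjusted p under 0.05 or called with the block, for PPAR, RXR, LXR, FXR and HNF4 members and for the member with the highest level per kilobase in each other subfamily. Genes of the lists are named where called, and a few others were named after their values were seen. Reads at 0 allow up to 3 by counting error. Figures were made with Python 3.11.15 and matplotlib 3.10.9.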

Additional observations from a re-analysis of the deposited data

How the results depend on the processing

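The planned fit called no member and 162 genes higher and 73 lower. With the mouse block, which the shared animal identifiers support as a pairing, it was 3 and 5 members and 1048 and 639 genes. On the recovered reads, DESeq2 called 3 and 4 members (846 and 348 genes) without and 3 and 5 (981 and 511 genes) with the block, and edgeR with the block called 4 and 5 (1171 and 588 genes). Without a minimum mean, 2 members were called lower, Esrrg and Nr1h3, and 506 genes higher and 245 lower, with more genes tested. At an unadjusted p under 0.05 with the 1.5-fold threshold kept, the counts were 4 and 5 members and 1170 and 776 genes.

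Leaving out 1 library at a time gave 0 to 2 members higher, 0 to 7 lower, 18 to 1194 genes higher and 2 to 1137 lower. The lowest gene counts were without the LDL library of mouse 3 and the highest without that of mouse 2, the 1 omission that gave members. The counts were 99 and 44 genes without the LDL library of mouse 1, and 27 and 3, 55 and 9, and 38 and 7 without the PBS library of mouse 1, 2 and 3. Without both libraries of mouse 3 no gene was called (0 higher and 0 lower).

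Alternatives chosen after the data were seen kept the block. They gave 3 and 4 members (719 and 326 genes) without mouse 1, 4 and 8 members (1634 and 1333 genes) without mouse 2, and 277 genes higher without mouse 3. Upper-quartile scaling gave 4 and 5 members (1090 and 592 genes) and quantile normalization 3 and 5 (939 and 666 genes). The causes of these differences were not tested. Of the 25 tested members given by library, 20 kept their sign in each of the 23 alternative fits that tested them, the 8 called members among them. Nr1d2, Nr2f6, Ppara, Pparg and Rara did not. Rarg and Nr0b2 fell below the minimum in the fit with a mean of at least 50, and Nr0b2 also with the block and mouse 2 left out. The median of the members lay between -0.16 and -0.02 in every fit.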

Other observations

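Hnf4g and Nr1h4, chosen here after their values were seen, were highest in mouse 2 with PBS and with LDL. Hnf4g had 2242 normalized counts with PBS in mouse 2, against 1306 and 1258 in mice 1 and 3, and 2578 against 1695 and 1630 with LDL. Nr1h4 had 461 with PBS and 679 with LDL in mouse 2, against 343 and 246 and 559 and 541 in mice 1 and 3. Hnf4a with PBS was level between mice 2 and 3, at 21071 and 21016, and with LDL it was highest in mouse 2, at 19266 against 16973 and 17815. Enterocyte markers (Alpi, Sis, Apoa1, Apoa4, Lct and Anpep) summed to 44809 and 46151 in the PBS and LDL libraries of mouse 2 and to 20100 to 24405 in the 4 libraries of the others. Rorb with LDL was lowest in mouse 2 and had 25.5 in mouse 2 against 80.5 and 113 in mice 1 and 3. With 1 mouse on one side these differences were not tested.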
